A study of Rattus norvegicus with 84 samples.

Results

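The comparison described here set the nucleus accumbens core of rats labelled Ctx_Coc against that of rats labelled HC_Coc, that is, 2 of the cocaine groups of a study of cocaine withdrawal and extinction. It used 6 Ctx_Coc and 7 HC_Coc libraries, 13 of the 84 libraries of the series. Members were chosen by title (subregion Core, treatment Ctx_Coc or HC_Coc) and by 1 measured value: the Ctx_Coc library 17-F was left out for its background of olfactory and vomeronasal receptor reads, given below. All animals were wild-type Long-Evans rats and the material was total RNA. The labels do not spell out HC, Ctx, Ext, Coc or Sal, nor doses, times, age or sex, and the abbreviations are used here as printed. The groups set beside these were Ctx_Sal and HC_Sal of the core (7 libraries each), the saline counterparts, and Ctx_Coc and HC_Coc of the shell (7 each). Ext_Coc and Ext_Sal libraries of the core entered the same fit, and their Fos and Nr4a1 levels are given below. Whether every library stands for its own animal is not stated in the labels, and the p-values rest on the spread among libraries, which may be technical in part.

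The nucleus accumbens is the ventral part of the striatum. Its main cells are inhibitory projection neurons that carry either D1-type or D2-type dopamine receptors, and its core is studied for its part in cue-driven drug seeking. Immediate early genes are genes that neurons switch on within minutes of strong synaptic input, without new protein synthesis. Calcium entry and cAMP activate CREB and SRF, transcription factors that bind the CRE and CArG-box sequences in the promoters of these genes. Fos, Fosb and Junb code for subunits of the AP-1 transcription factor, Egr1 and Egr2 for zinc-finger factors, Nr4a1 and Nr4a3 for orphan nuclear receptors. Arc and Homer1 act at synapses, where they regulate AMPA receptor traffic and metabotropic glutamate receptor scaffolding. In this tissue acute cocaine is known to raise many of them, and a stable product of Fosb builds up with repeated exposure.

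Total counts ran from 14.4 to 21.8 M (mega-counts) per Ctx_Coc library (median 18.5 M) and from 13.6 to 20.7 M per HC_Coc library (median 18.8 M), and no 2 of the libraries held identical values. As a background measure, reads were summed over 2030 olfactory and vomeronasal receptor genes, which brain tissue hardly uses. On a log2 counts-per-million (CPM) scale this sum was 12.1 in library 17-F, with 0.576% of its counts from mitochondrial genes. In the other Ctx_Coc libraries the sum was 6.18 in library 19-F and 9.19 to 10.6 in the remaining 5. In HC_Coc it was 6.58, 7.58 and 6.82 in libraries 1-9, 5-F and 13-F, and 9.98 to 10.5 in the other 4. Low-background libraries thus made up 1 of 6 in Ctx_Coc and 3 of 7 in HC_Coc. Titles carry a series mark (1, 2 or F), with 2, 3 and 1 libraries in Ctx_Coc and 2, 3 and 2 in HC_Coc. This mark was a covariate of every main test. The tissue markers were present in both groups: Drd1 ran from 23.4 to 132 CPM in Ctx_Coc and 33.8 to 134 in HC_Coc, and Penk, which codes for proenkephalin in D2-type cells, from 102 to 602 and 137 to 637.

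No gene was called different between Ctx_Coc and HC_Coc in the core after adjustment over all genes. Of 31433 genes tested with edgeR's quasi-likelihood test, 0% were called, and the lowest Benjamini-Hochberg adjusted p was 0.963. At an unadjusted p under 0.05 there were 183 genes, against 1572 that would be there if none differed. That count was 589 with the background covariate described below, 1311 with 17-F kept, 548 with no low-count filter and 623 in the libraries of high background alone. It was 109 to 443 when 1 library was left out (443 without 1-8, 314 without 19-F, 120 without 13-F, 109 without 1-14 or 5-F). Of the 183 genes, 138 (0.439% of all tested) had lower and 45 (0.143%) higher estimates in Ctx_Coc. The median log2 difference of all genes was 0.02, and 47.4% of the estimates lay below 0. With DESeq2's Wald test 216 genes had an unadjusted p under 0.05 and none was called, the lowest adjusted p being 0.339. The estimates below are therefore given as values with their errors, and none of them passed the adjusted threshold.

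The immediate early genes were the group with the lowest estimates among the lists examined. Of 28 measured members, 26 had estimates below 0 in Ctx_Coc, with a median log2 difference of -0.47, and the other two were Maff and Bdnf. Those at an unadjusted p under 0.05 were 9 of 28, all of them lower: Klf4, Fosl2, Nr4a3, Nr4a1, Fos, Egr2, Fosb, Btg2 and Npas4. Over all genes the same rule picks out 0.439%. The list was drawn up with earlier results of these data known, so its count is a description.

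Promoter sequences of 23 of the 28 members were found in the RefSeq table (build GRCr8, which is not the build of the counts); those of Fos, Jun, Egr3, Arc and Nr4a3 were not. Each window holds the 250 bases before the annotated start. The short CRE motif TGACG, searched on both strands, lay in 13 of the 23 windows and in 18.2% of 33469 promoters of the same length. The full CRE TGACGTCA, which holds the short motif on both strands, lay in 5 of the 23 (Btg2, Dusp1, Ier2, Jund, Maff) and in 1.59% of all. The CArG box was found in Egr1 and Egr2, and in 1.5% of all. The 3 windows below belong to members with low p and show each kind of match in capitals: a CArG box followed by a short motif in Egr2, 4 short motifs in Nr4a1, and a full CRE in Btg2. These are matches of letters only, and binding was not measured.
Egr2, chr20:21054442-21054691, minus strand: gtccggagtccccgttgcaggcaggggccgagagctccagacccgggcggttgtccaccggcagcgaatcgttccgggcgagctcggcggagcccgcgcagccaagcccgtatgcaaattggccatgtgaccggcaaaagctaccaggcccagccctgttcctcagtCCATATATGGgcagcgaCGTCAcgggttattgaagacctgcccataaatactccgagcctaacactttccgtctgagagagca
Nr4a1, chr7:134259888-134260137, plus strand: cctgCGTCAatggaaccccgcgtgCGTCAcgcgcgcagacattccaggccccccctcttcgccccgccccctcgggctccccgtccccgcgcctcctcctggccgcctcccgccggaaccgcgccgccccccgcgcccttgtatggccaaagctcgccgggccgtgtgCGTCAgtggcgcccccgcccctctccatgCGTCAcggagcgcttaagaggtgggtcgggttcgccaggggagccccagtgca
Btg2, chr13:48087691-48087940, minus strand: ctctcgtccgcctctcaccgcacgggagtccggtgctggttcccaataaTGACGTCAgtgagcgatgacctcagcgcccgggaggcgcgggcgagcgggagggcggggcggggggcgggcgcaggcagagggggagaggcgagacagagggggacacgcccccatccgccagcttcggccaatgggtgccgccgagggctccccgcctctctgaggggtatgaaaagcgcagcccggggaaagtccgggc

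Fos, the AP-1 subunit most used as a mark of recent neuronal activity, ranged from 2.83 CPM over a median of 5.53 to 7.14 CPM in Ctx_Coc. In HC_Coc it ranged from 4.19 over 9.38 to 19.7 CPM. The 3 highest HC_Coc libraries, at 14.7, 18.1 and 19.7 CPM, were 1-9, 5-F and 13-F, the same 3 that had low receptor-gene background. Of the other 4 HC_Coc libraries, 2-9 at 9.38 CPM also lay above every Ctx_Coc library, at a log2 background of 10.1, and 3 overlapped with Ctx_Coc. The log2 difference of Fos was -0.93 ± 0.31 (SE), the lowest of the list (unadjusted p = 0.0046, edgeR). Per length, the median Fos level was 1.71 FPKM in Ctx_Coc and 3.27 FPKM in HC_Coc.

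Fosb ran from 4.25 over 6.45 to 7.84 CPM in Ctx_Coc and from 5.7 over 7.75 to 17.5 CPM in HC_Coc, with a log2 difference of -0.61 ± 0.22. Fosl2, another AP-1 subunit, had a tighter spread: 15.6 over 19.7 to 21.7 CPM against 19.6 over 23.3 to 40.8 CPM. In Fosl2, 5 of 7 HC_Coc libraries lay above the highest Ctx_Coc library, and the log2 difference was -0.56 ± 0.16 (unadjusted p = 0.00148, edgeR). Junb spread from 10.1 to 32.3 CPM and from 13.3 to 58.5 CPM, and its difference of -0.53 ± 0.30 had an unadjusted p of 0.0881. Jund, the AP-1 subunit that is made steadily, was at -0.07 ± 0.25.

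The nuclear receptor genes were highest in the same 3 HC_Coc libraries. Nr4a1 ran from 15.6 over 25.6 to 33.5 CPM in Ctx_Coc and from 22 over 31.1 to 69.6 CPM in HC_Coc, a log2 difference of -0.67 ± 0.22. Its 3 values above all of Ctx_Coc (62.5, 63.4 and 69.6 CPM) came from the low-background libraries 1-9, 5-F and 13-F. Nr4a3 ran from 16.6 over 29.2 to 35 CPM and from 26.1 over 36.4 to 75 CPM, a log2 difference of -0.65 ± 0.21. The remaining Nr4a1 values overlapped with Ctx_Coc. For Nr4a3, 4 of 7 HC_Coc libraries lay above the highest Ctx_Coc library, the 4 being the same 3 and library 2-9 at 36.4 CPM.

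Klf4, a Krüppel-like zinc-finger factor, had the lowest p of the list. Its level was 3.84 over 4.42 to 6.57 CPM in Ctx_Coc and 4.55 over 6.12 to 11.8 CPM in HC_Coc. The log2 difference was -0.68 ± 0.18 (unadjusted p = 0.000666, edgeR), and 4 of 6 Ctx_Coc libraries lay below every HC_Coc library. Library 19-F, the Ctx_Coc library of low background, stood at 4.01 CPM for Klf4, where the 3 HC_Coc libraries of low background stood at 9.96, 10.7 and 11.8 CPM.

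Egr2 ran from 2.9 to 5.22 CPM in Ctx_Coc and from 3.35 to 12 CPM in HC_Coc, with a log2 difference of -0.72 ± 0.26. Egr4 was at -0.58 ± 0.29 and Egr1 at -0.46 ± 0.31, both with an unadjusted p above 0.05. Btg2, an antiproliferative coregulator, was at -0.53 ± 0.21, and 4 of 7 HC_Coc libraries lay above the highest Ctx_Coc library. Npas4, a factor that answers to calcium entry in neurons, ran from 10.2 over 15.7 to 19.8 CPM and from 12.8 over 19.1 to 34 CPM, with a difference of -0.46 ± 0.19.

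Among the synaptic members, Arc ran from 14.6 over 42.6 to 53.5 CPM in Ctx_Coc and from 23.9 over 49.7 to 113 CPM in HC_Coc (log2 difference -0.68 ± 0.34, unadjusted p = 0.0533, edgeR). Homer1 ran from 113 to 276 CPM and from 130 to 540 CPM (-0.48 ± 0.25, unadjusted p = 0.058, edgeR). Bdnf, the neurotrophin, gave 0.10 ± 0.54: its level lay between 0.371 and 10.1 CPM in Ctx_Coc and between 1.25 and 11.6 CPM in HC_Coc, a span that the groups shared.

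**Figure D1:**
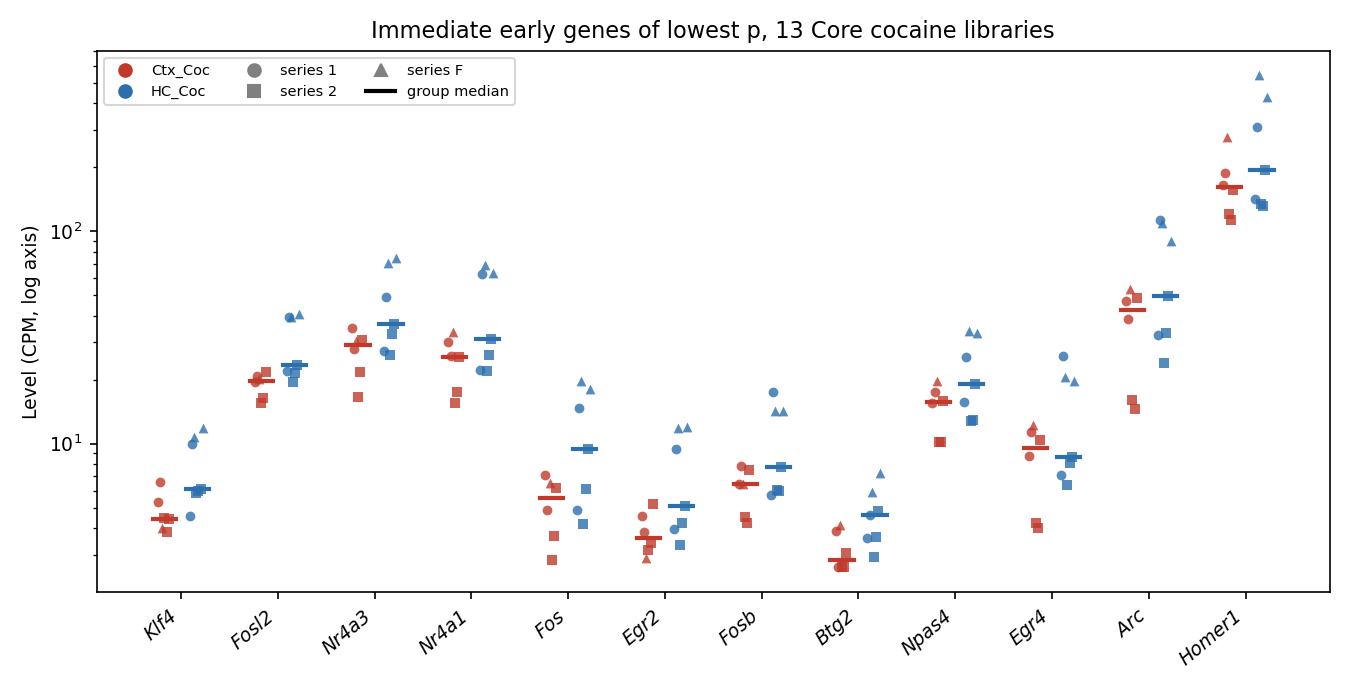
Level in CPM (log axis) of 12 immediate early genes in each of the 13 core libraries; red points are Ctx_Coc and blue points HC_Coc, shapes give the series and bars the group median. For Fos and Nr4a1 the 3 highest HC_Coc points (14.7 to 19.7 and 62.5 to 69.6 CPM) lie above all Ctx_Coc points; a 4th Fos point, at 9.38 CPM, does too, and the other HC_Coc points overlap with them.

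The receptor-gene background differed between libraries of high and low immediate early gene level, and it was put into the fit in 2 ways. With the background of each library as a covariate, 26 of 28 members still had estimates below 0 and 10 had an unadjusted p under 0.05, with a median of -0.29. In that fit 20039 of all 31433 genes were below 0, with a median of -0.04, and 426 of them were lower at an unadjusted p under 0.05. Under that covariate Fos was at -0.73 ± 0.24, Nr4a1 at -0.52 ± 0.16 and Klf4 at -0.56 ± 0.14. With only libraries whose log2 background was above 9, which leaves 5 Ctx_Coc and 4 HC_Coc libraries, 21 of 28 were below 0 and the median was -0.11, where all genes had a median of 0.00. In that fit, chosen after seeing the data, 0 of 28 members had an unadjusted p under 0.05 with edgeR. There Fos was at -0.38 ± 0.25, Nr4a1 at -0.23 ± 0.18 and Klf4 at -0.28 ± 0.15. With library 17-F kept, the median was -0.68 and 16 of 28 had an unadjusted p under 0.05, all lower, as did 616 of 31370 genes in that fit.

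**Figure D2:**
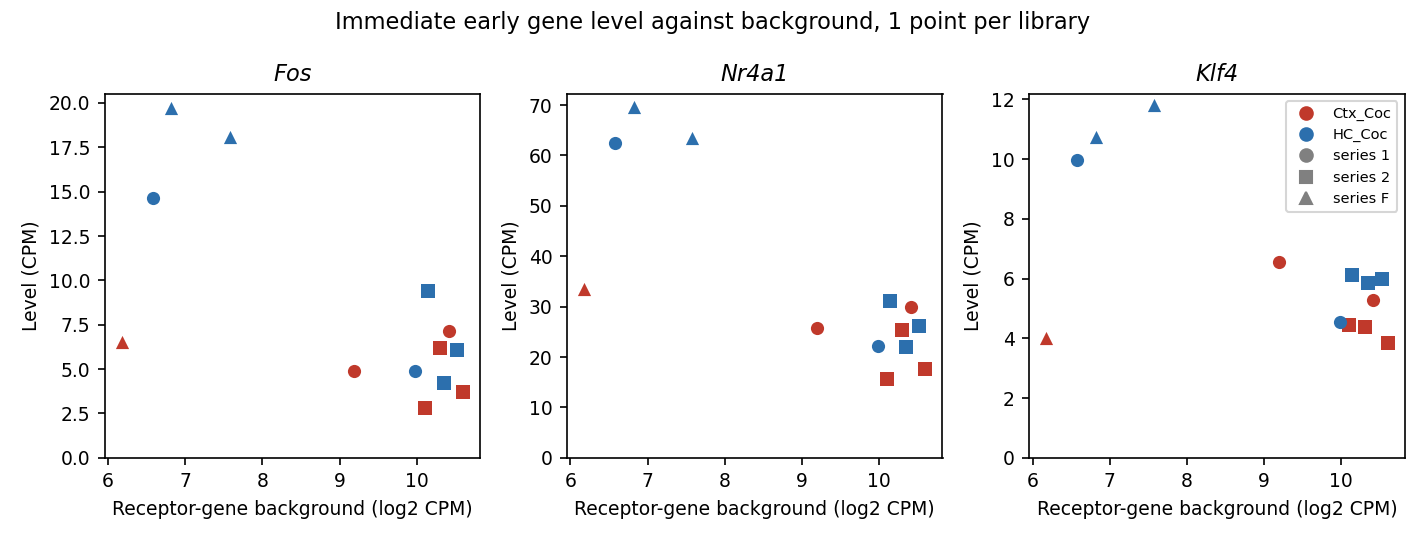
Level in CPM of Fos, Nr4a1 and Klf4 (vertical axes) against the summed level of olfactory and vomeronasal receptor genes (log2 CPM, horizontal axes), 1 point per core library, red for Ctx_Coc and blue for HC_Coc. Among libraries of low background, the 3 HC_Coc points stand above the Ctx_Coc point 19-F, and among the others the groups overlap.

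The list median had the same sign in each series. The median log2 difference of the 28 members was -0.36 among series 1 libraries, -0.28 among those of series 2 and -0.70 in series F, where 1 Ctx_Coc library met 2 HC_Coc libraries. Over all genes the medians were 0.17, 0.00 and -0.26. In series F 23769 of all 31433 genes were below 0. For Fos the differences were -0.51, -0.62 and -1.51, and for Klf4 -0.19, -0.49 and -1.46. All libraries of series 2 had high background. Without the F libraries the median was -0.33 and 5 of 28 members had an unadjusted p under 0.05, all lower. In that fit 103 of 31308 genes were lower at that p, and all genes had a median of 0.02.

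The saline groups and the shell give the same contrast in other libraries. In the core, Ctx_Sal against HC_Sal gave a median of 0.05 over the 28 members, with 11 below 0 and none lower at an unadjusted p under 0.05 (1.11% of all genes were). Fos was at -0.23 in saline, Nr4a1 at -0.02 and Klf4 at 0.09. The cocaine difference minus the saline difference had a median of -0.49. The receptor-gene background moved oppositely in the 2 arms, with medians of 0.34 in cocaine, -0.64 in saline and 0.99 in this difference. The saline and difference values of the members are given without the background as a covariate, so its part in them is not shown. Other lists also had medians below 0 there, among them vesicle release (-0.40), postsynaptic scaffold (-0.41) and myelin genes (-0.39), where all genes had a median of 0.06. Klf4 (-0.76, unadjusted p = 0.0041, edgeR), Nr4a1 (-0.65) and Btg2 (-0.59) were among 4 members lower at an unadjusted p under 0.05, where 1.45% of all genes were. No gene passed adjustment in that test of the difference, so the contrast was not shown to differ between cocaine and saline. With edgeR the lowest adjusted p was 0.661 and 760 genes had an unadjusted p under 0.05, and with DESeq2 0 were called and 962 did. With the background covariate 0 genes were called in saline or in the difference (edgeR). The lowest adjusted p was then 0.517 in saline, where 3004 genes had an unadjusted p under 0.05, against 704 in the main fit. In the difference it was 0.889, with 1542 genes.

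In the shell, Ctx_Coc against HC_Coc gave a median of -0.53, and 20 of 28 members had lower estimates at an unadjusted p under 0.05, where 8.63% of all genes did. The receptor-gene background moved there too, with a median of 0.41 against 0.34 in the core. The shell values of the members are given without the background as a covariate, so its part in them is not shown. Fos was at -0.97 in the shell and -0.93 in the core, Nr4a1 at -0.71 and -0.67, and Btg2 at -0.89 and -0.53. No gene was called in the shell either (lowest adjusted p = 0.294, edgeR), where 4921 had an unadjusted p under 0.05. The difference between core and shell itself had a median of 0.09 over the members. None of them was lower at an unadjusted p under 0.05 in that test, against 0.435% of all genes, and no gene passed adjustment (lowest adjusted p = 0.257 and 187 genes at an unadjusted p under 0.05, edgeR). With the receptor-gene background as a covariate the lowest adjusted p in the shell was 1 and 833 genes had an unadjusted p under 0.05. That shell count was 2398 without F libraries and 2465 with only the groups compared. The titles do not say whether core and shell libraries came from the same animals.

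**Figure D3:**
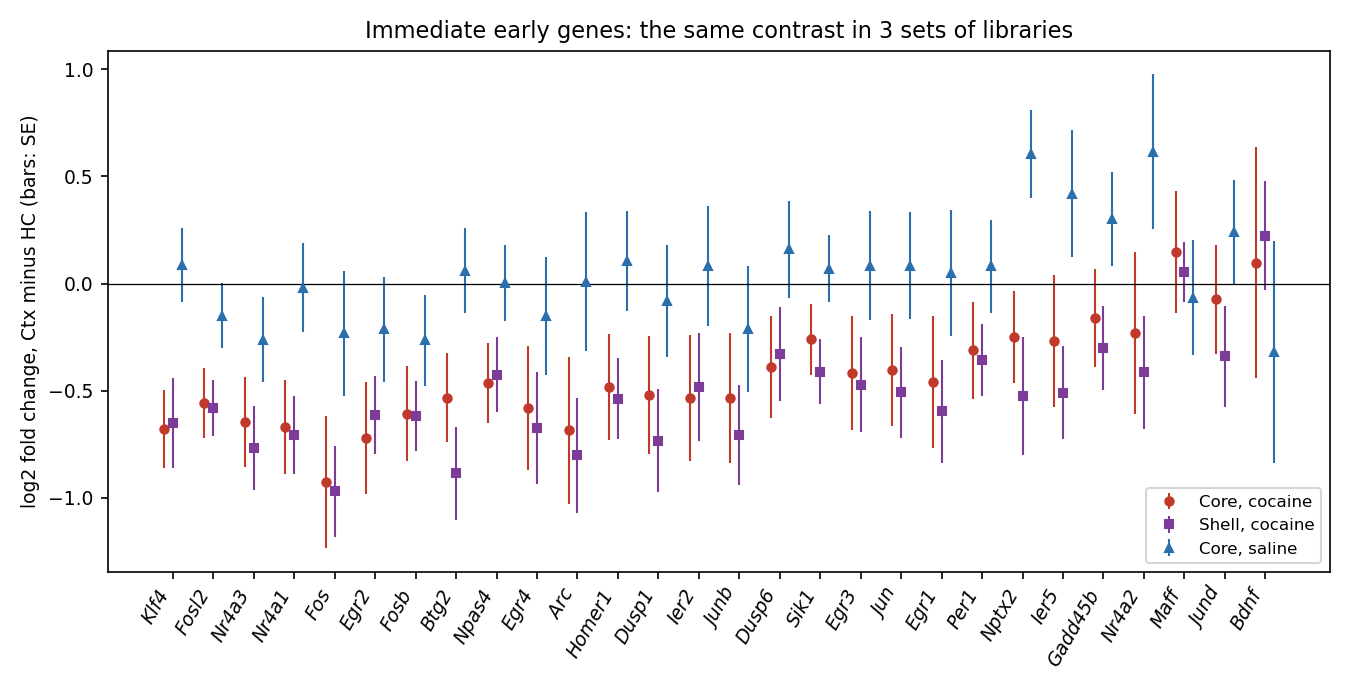
Log2 difference, Ctx minus HC, of the 28 immediate early genes (horizontal axis) in core cocaine (red), shell cocaine (purple) and core saline (blue) libraries; bars are standard errors. Cocaine estimates lie below 0 for 26 of 28 members in the core, with medians of -0.47 in the core and -0.53 in the shell, and saline estimates scatter around 0 with a median of 0.05.

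Seen over all 6 core groups, mean Fos was highest in HC_Coc at 3.24 ± 0.91 log2 CPM (SD, n = 7), then HC_Sal at 3.04 ± 0.57 and Ext_Coc at 2.93 ± 0.36. Ctx_Sal at 2.76 ± 0.77, Ext_Sal at 2.49 ± 0.70 and Ctx_Coc at 2.34 ± 0.51 (n = 6) followed. Neighbours in this order differed by less than their SD. Nr4a1 was also highest in HC_Coc, at 5.24 ± 0.75 log2 CPM, and lowest in Ctx_Coc, at 4.58 ± 0.43, which Ext_Sal matched at 4.59 ± 0.43. The ranges of all 6 groups overlapped for both genes.

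**Figure D4:**
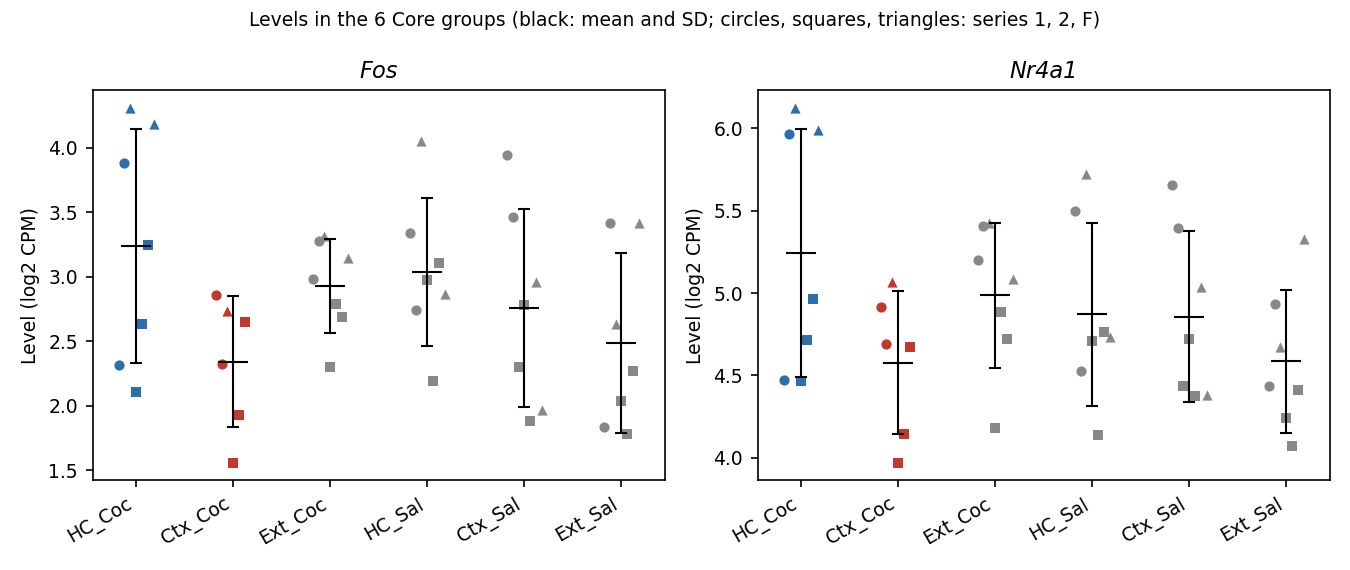
Levels of Fos and Nr4a1 (log2 CPM) in the 41 core libraries by group, with HC_Coc in blue, Ctx_Coc in red and the other groups in grey; black bars are the mean and SD and shapes give the series. HC_Coc has the highest mean and the widest spread (Fos 3.24 ± 0.91), and Ctx_Coc the lowest Fos mean (2.34 ± 0.51).

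Among genes with a symbol and a mean log2 CPM of at least 1, those of lowest p outside the immediate early genes were Atg4a, Sh3d19, Ccnb1ip1 and Cilk1. Sh3d19, an adaptor protein with SH3 domains, was the named gene whose groups did not overlap: 49.9 over 52.3 to 54.2 CPM in Ctx_Coc against 55.3 over 60.1 to 74.2 CPM in HC_Coc. Its log2 difference was -0.22 ± 0.08 (unadjusted p = 0.0072, edgeR). In all, 3 of 31433 genes (0.00954%) had every Ctx_Coc value below every HC_Coc value, the other two being uncharacterised loci. Split by the title mark, the Sh3d19 difference was -0.25 (mark 1), -0.07 (mark 2) and -0.42 (mark F, with 1 Ctx_Coc library). The Ctx_Coc library left out, 17-F, stood at 128 CPM without scaling between libraries. That value cannot be set against the scaled values above. Sh3d19 was at 0.01 in saline and 0.06 in the shell, and core minus shell was -0.28 (unadjusted p = 0.00329, edgeR). The gene was picked by its core values, which enter that test too, so its p-value is a description.

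Atg4a, a protease of autophagy, ran from 45.6 over 54.8 to 83.3 CPM in Ctx_Coc and from 63.6 over 69 to 130 CPM in HC_Coc. Of the 6 Ctx_Coc libraries, 5 lay below the lowest HC_Coc library, and the log2 difference was -0.52 ± 0.18. It was -0.51 with the background covariate and -0.29 in libraries of high background. Saline gave 0.21 for Atg4a.

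The other 2 estimates rest on 1 or 2 libraries. Cilk1, a kinase of primary cilia, was at 20.9 to 24.5 CPM in all of Ctx_Coc and at 21.2 to 29.5 CPM in 5 HC_Coc libraries, but at 136 CPM in library 1-9 and 62.9 CPM in library 5-F. In libraries of high background its difference was -0.01, against -0.85 ± 0.31 over all. Ccnb1ip1, a ubiquitin ligase known from meiosis, was at 19.7 CPM in library 1-14 and at 1.04 to 3.19 CPM in the other Ctx_Coc libraries, against 1.04 to 3.31 CPM in HC_Coc (1.29 ± 0.46). LOC100911193, named here because its value was seen, had the lowest p of all genes (2.20 ± 0.58). It stood at 377 CPM in library 19-F and between 7.78 and 13.6 CPM in all other libraries of the comparison, and without 19-F its difference was -0.16.

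Genes that define the projection neurons had small estimates with wide errors. All 18 genes of projection neuron identity and cAMP signalling were below 0, with a median of -0.21, and none had an unadjusted p under 0.05. In the libraries of high background 6 of 18 were below 0, with a median of 0.02. Pde10a, the striatal phosphodiesterase, was at -0.26 ± 0.23, Rgs9, which speeds the end of dopamine receptor signalling, at -0.23 ± 0.22, and Foxp1, a striatal transcription factor, at -0.23 ± 0.16. Bulk tissue cannot tell fewer cells of a type from less RNA per cell.

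Drd2 ran from 80.9 over 105 to 222 CPM in Ctx_Coc and from 89.3 over 112 to 264 CPM in HC_Coc (-0.28 ± 0.22). The 8 D2-type markers, all below 0 (7 with DESeq2 size factors), had a median of -0.18 and the 8 D1-type markers, 6 below 0 (5 with DESeq2 size factors), one of -0.08, with no member of either list at an unadjusted p under 0.05. Drd1 was at -0.14 ± 0.28, Pdyn, the dynorphin precursor, at -0.12 ± 0.27, Penk at -0.25 ± 0.30 and Cartpt, the CART peptide precursor, at -0.10 ± 0.28. Each of these 5 genes had a positive estimate in libraries of high background. Of the 16 neuropeptide genes 9 were below 0 (8 with DESeq2 size factors), and the lowest p belonged to Nmb, neuromedin B, at 0.38 ± 0.19 (unadjusted p = 0.0529, edgeR), with 2.15 to 3.35 CPM in Ctx_Coc and 1.33 to 2.74 CPM in HC_Coc.

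Synaptic and channel genes showed the same small offset. Of 14 AMPA receptor and auxiliary genes 12 were below 0 (median -0.16), of 22 vesicle release genes 20 (17 with DESeq2 size factors; median -0.14), and of 22 sodium and calcium channel genes 21 (median -0.17). None of these had an unadjusted p under 0.05. Grip1, which anchors AMPA receptors, was at -0.24 ± 0.18, and Sv2b, a vesicle protein, at -0.26 ± 0.14. Grm3, a metabotropic glutamate receptor that dampens transmitter release, ran from 281 over 405 to 783 CPM and from 326 over 496 to 935 CPM (-0.33 ± 0.24). In libraries of high background the medians of these lists were 0.00, 0.12 and 0.01. Among 30 chromatin regulators 29 were below 0, with a median of -0.18, while in libraries of high background 10 of 30 were below 0, with a median of 0.02. Hdac4, a histone deacetylase that shuttles out of the nucleus with activity, was at -0.15 ± 0.08 (unadjusted p = 0.0835, edgeR).

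Myelin genes had the lowest median after the immediate early genes. All 13 measured markers of myelinating oligodendrocytes were below 0, with a median of -0.31, and none had an unadjusted p under 0.05. Their summed level, not scaled between libraries, ran from 1904 over 3366 to 4473 CPM in Ctx_Coc. In HC_Coc it ran from 2694 over 4414 to 5469 CPM, so the groups overlapped. Ermn, a cytoskeletal protein of myelin, was at -0.39 ± 0.28, Mal, a membrane protein of myelin, at -0.37 ± 0.27, and Aspa, which splits N-acetylaspartate, at -0.25 ± 0.13. The 13 were also below 0 with the background covariate (median -0.19, where 20039 of all 31433 genes were below 0) and in libraries of high background (median -0.12, where 15641 of all 31684 genes were). In saline none of the 13 was below 0, with a median of 0.07.

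Markers of other cells in or near the accumbens overlapped between groups throughout. Astrocyte markers had a median of -0.19 (12 of 13 below 0, 10 with DESeq2 size factors and 6 in libraries of high background), microglia -0.04, endothelial cells -0.04 and mural cells, fibroblasts and meninges -0.04, with no member at an unadjusted p under 0.05. With DESeq2 size factors 7 of 14 microglial, 5 of 10 endothelial and 6 of 12 mural and meningeal markers were below 0. Aqp4, the astrocyte water channel, was at -0.26 ± 0.25, and Trem2, a microglial receptor, at 0.17 ± 0.16. Without scaling between libraries, cortical neuron markers summed to 243 to 479 CPM in Ctx_Coc and 264 to 403 CPM in HC_Coc (median difference -0.07). Thalamic, septal and pallidal markers summed to 98.7 to 367 and 97 to 349 CPM (median 0.11), and choroid plexus and ependymal markers to 12.1 to 87.5 and 11.9 to 85.6 CPM (median 0.14). S100a9, a neutrophil protein, had the lowest p of the blood list at 0.74 ± 0.43, from at most 1.35 CPM. The 593 receptor genes that passed the filter had a median of 0.34.

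**Figure D5:**
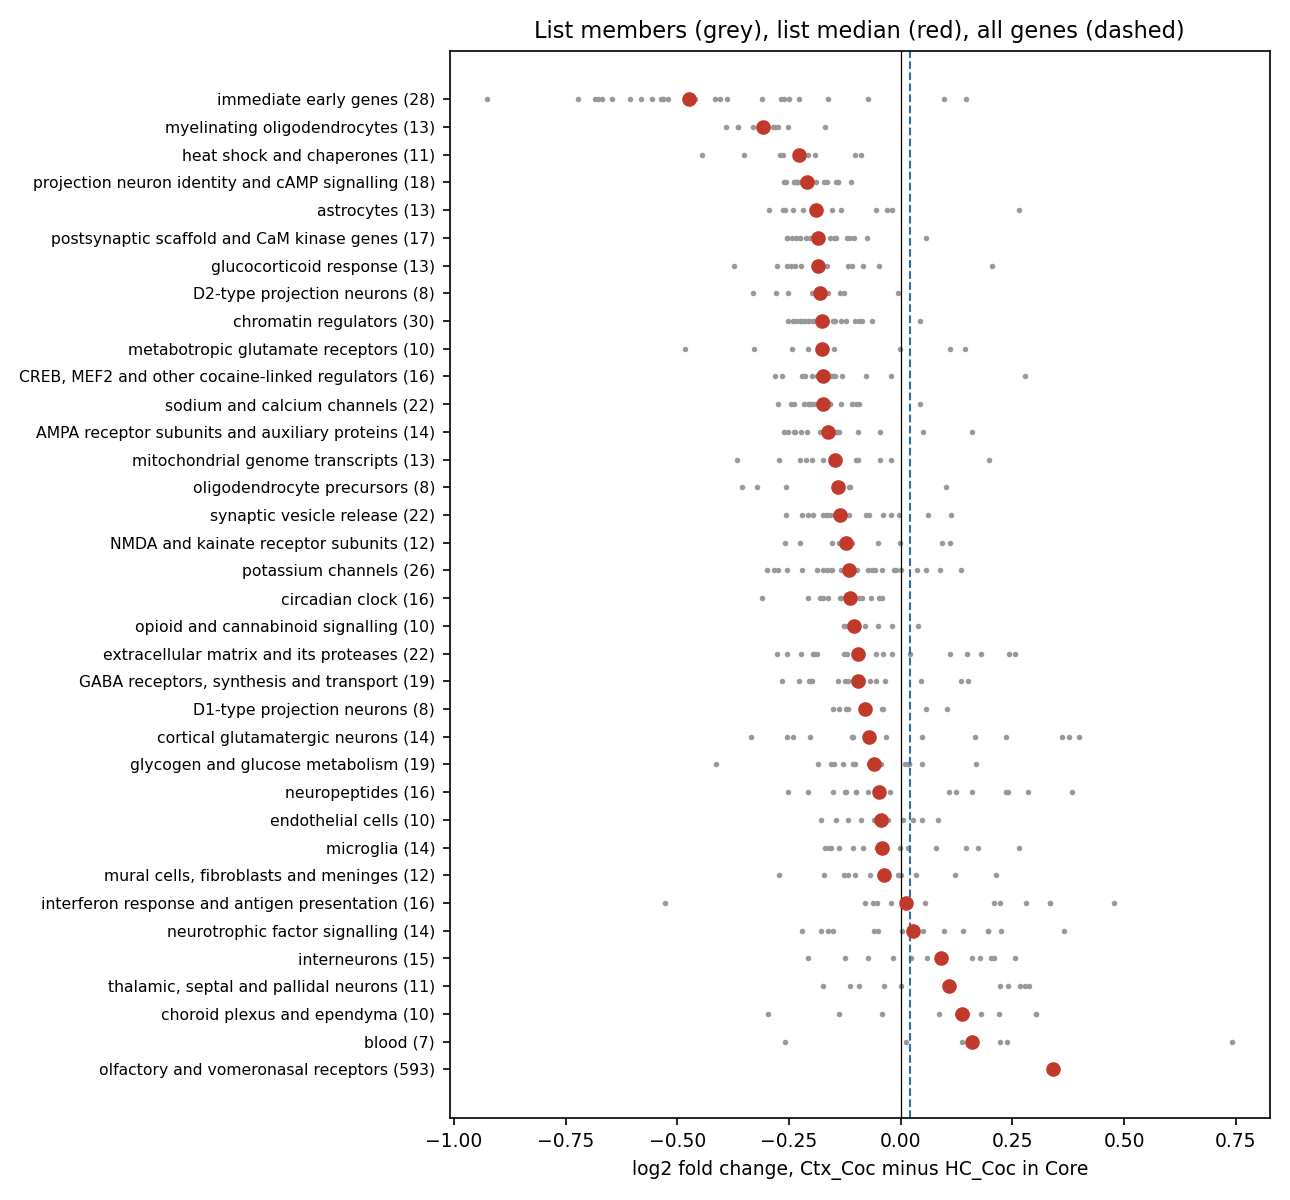
Log2 difference, Ctx_Coc minus HC_Coc in the core, of the members of each gene list (grey points) with the list median (red); numbers in brackets count the members tested and the dashed line is the median of all genes, 0.02. Immediate early genes (-0.47) and myelin genes (-0.31) have the lowest medians, and the receptor-gene background the highest (0.34; its members are not drawn).

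Other programmes were flat or followed the same offset. All 16 clock genes (15 with DESeq2 size factors) and all 11 heat shock genes were below 0, with medians of -0.11 and -0.23, but 3 of 16 and 2 of 11 were in libraries of high background. Per1, a clock gene that is also an immediate early gene, was at -0.31 ± 0.23, and Cryab, a small heat shock protein, at -0.35 ± 0.29. Of 19 glycogen and glucose genes 1 had an unadjusted p under 0.05, Ppp1r3g, a targeting subunit of glycogen phosphatase, at -0.41 ± 0.20. Sult1a1, a sulfotransferase in the glucocorticoid list, was at -0.37 ± 0.22. Ifit2, an interferon-induced gene, was at 0.28 ± 0.20.

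A further 4 genes were carried along because earlier results of these data had named them for Ctx in the core. Clec11a, a secreted lectin that acts as a growth factor, ran from 4.85 over 5.49 to 5.7 CPM in Ctx_Coc and from 5.23 over 6.92 to 8.11 CPM in HC_Coc. Of 7 HC_Coc libraries, 6 lay above the highest Ctx_Coc library, and the log2 difference was -0.29 ± 0.12 (unadjusted p = 0.0188, edgeR). In saline Clec11a went the other way, at 0.27, and the cocaine minus saline difference was -0.56. Plcd1, a phospholipase C, was at -0.20 ± 0.10 in cocaine and 0.25 in saline. Adcy1, a calcium-stimulated adenylyl cyclase, was at -0.11 ± 0.12 and 0.37, and Trim47, a ubiquitin ligase, at -0.14 ± 0.17 and 0.47. Since the genes were known from these libraries, the cocaine minus saline differences are descriptions.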

How the data were processed

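Nucleus accumbens RNA was made with a Direct-zol column kit and a stranded low-input total RNA kit (SMARTer v3 Pico), per the labels' protocols. The authors deposited raw counts per gene made with featureCounts on mRatBN7.2, per the submitters' processing notes (aligner, annotation release and strand setting: not given in the sources used here), so overlapping or antisense genes cannot be told apart. The deposited FPKM values imply 1 length per gene in 100% of 27764 genes (within 1%), which can span introns (63986 bases for Drd2), and were used only for levels per length.

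Counts were tested with edgeR 4.0.16 in R 4.3.3 (filterByExpr, TMM, quasi-likelihood F test, two-sided, Benjamini-Hochberg, threshold 0.05). One fit over 41 core libraries, 6 groups and series gave the cocaine, saline and cocaine-minus-saline contrasts, a second fit 42 shell libraries, another all 83 (series within subregion). SE is the log2 difference over the root of F. Log2 CPM used a prior count of 2, and CPM is TMM-scaled. Correlations of library pairs within the 2 groups ran from 0.824 to 0.990. The method was also run on simulated data without series effects or background differences, so that run says nothing on how it handles them.

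Alternatives were DESeq2 1.42.0 and its size factors, a fit without the filter on low counts, without the series covariate, on the compared groups alone, with 17-F kept, without F libraries, the receptor-gene background (Olr, Vom1r and Vom2r symbols) as covariate, and each library left out. Members and lists were chosen with earlier results of these data known. Genes named were those past the threshold (none), the 10 of lowest p with a symbol and a mean log2 CPM of at least 1, up to 3 of lowest p per list, and a fixed set of activity, dopamine and peptide genes.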

Additional observations from a re-analysis of the deposited data

Results flagged for a closer look

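Of 108 sets of values checked (genes named here, counts, background and mitochondrial share, each within Ctx_Coc or HC_Coc), 6 had 1 library far from the rest, or 5.56%, where chance gives about 1 in 20. All 6 lay in Ctx_Coc, and 5 of them were library 19-F. Its background was 6.18 on the log2 CPM scale, against 9.19 to 10.6 in the other 5 libraries. Bdnf stood at -1.05 log2 CPM in 19-F, against 2.52 to 3.35, and Folr1, a folate receptor of the choroid plexus, at -0.84, against 2.20 to 2.88. Grip1 was high in 19-F, at 9.48 log2 CPM against 8.65 to 8.93. LOC100911193 stood at 8.56 in 19-F, against 2.98 to 3.61. Ccnb1ip1 stood at 4.30 in library 1-14, against 0.20 to 1.72 in the others. The part of the background in the Bdnf, Folr1 and Grip1 values was not tested.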

How the results depend on the processing

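The count of genes past the adjusted threshold was 0 in the main comparison under all 22 alternatives, the 13 fits that leave out 1 library each included, with edgeR and with DESeq2. In the test of core minus shell it was 1, LOC100911193, without the series covariate, and 0 otherwise. The immediate early genes lower at an unadjusted p under 0.05 (9 of 28) numbered 5 without F libraries, 16 with 17-F kept, 0 in libraries of log2 background above 9, and 9 to 19 when 1 library was left out (19 without HC_Coc 1-8, 16 without Ctx_Coc 2-15). Among all genes, 138 of 31433 were lower at that p in the main fit and 103 of 31308 without F libraries. With 17-F kept 616 of 31370 were, and in libraries of high background 325 of 31684. The median of the immediate early genes went from -0.47 to -0.29 with the background covariate and to -0.11 in libraries of high background.

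The signs of 10 named genes turned under some alternative, and the cause was not tested. With the background covariate Bdnf was at -0.21, Jund at 0.086, Drd1 at 0.048, Pdyn at 0.040, Cartpt at 0.048 and Folr1 at -0.027. In libraries of high background Egr1 was at 0.064, Bdnf at -0.23, Jund at 0.16, LOC100911193 at -0.034, Drd1 at 0.20, Drd2 at 0.0042, Pdyn at 0.11, Penk at 0.14, Cartpt at 0.058 and Folr1 at -0.029. Without F libraries LOC100911193 was at -0.073, and with only the groups compared Bdnf was at -0.20. Leaving out 1 library at a time moved Bdnf between -0.14 and 0.42, Jund between -0.26 and 0.092, LOC100911193 between -0.16 and 2.52, Drd1 between -0.33 and 0.011, Pdyn between -0.34 and 0.025, and Cartpt between -0.34 and 0.047.

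Labels give no replicate numbers shared by Ctx_Coc and HC_Coc. Core and shell titles share numbers, which may or may not pair animals: over 30 pairs the deviations from group means correlated with a median of 0.18 (-0.44 to 0.68), and 3 libraries correlated best with their own number. With the number as a replicate block, core minus shell had 0 genes called. The typical standard error of a gene in the main comparison, a median of 0.27 on the log2 scale, limits what these libraries can show. With the background covariate the standard error of Per1 was 0.093, against 0.23 in the main fit, and that of Fos 0.24, against 0.31. The 183 genes at an unadjusted p under 0.05 were fewer than the 1572 of no difference. The p-values thus ran high, and the lack of calls does not show that the groups were alike.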
